A study of Mus musculus with 8 samples.

Results

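The genes described here encode the nuclear part of the oxidative phosphorylation machinery in a mouse T-cell lymphoma line, MBL2, which is of C57BL/6 origin and was induced by Moloney murine leukaemia virus. The set was chosen with earlier results of these data known, and its members were taken by symbol alone. It holds every gene of the deposited table whose symbol starts with Nduf, Uqcr, Atp5 or Cox followed by 4 to 8, or equals Sdha, Sdhb, Sdhc, Sdhd, Cyc1 or Cycs. This gave 88 of the 12260 genes listed. By complex these were 36 subunits of complex I, 7 complex I assembly factors (Ndufaf), 4 genes of complex II, 9 of complex III, cytochrome c (Cycs), 14 of complex IV and 15 of complex V. The remaining 2, Atp5s and Atp5sl, carry the prefix but are not core parts of the synthase (RefSeq lists them as Dmac2l and Dmac2). Ndufa4 and Ndufa4l2 were counted with complex IV, where their proteins are now placed, and so was Cox7a2l.

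The study measured polyadenylated RNA in 4 groups of 2 libraries, each taken 24 h after a single dose. The combination group received talazoparib and romidepsin together, the talazoparib group received talazoparib alone, the romidepsin group received romidepsin alone, and the control group was untreated. Talazoparib inhibits and traps PARP enzymes on DNA, and romidepsin inhibits class I histone deacetylases. All groups are the same line, described in the labels with no engineered allele, and no label gives a dose. Whether the paired libraries of a group were grown as separate cultures is not labelled, so p-values here measure the spread between these libraries, which may be technical.

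Complexes I to IV pass electrons from NADH and succinate to oxygen and pump protons across the inner mitochondrial membrane, and complex V, the ATP synthase, uses the returning protons to make ATP. Coenzyme Q carries electrons to complex III and cytochrome c carries them on to complex IV. A small set of core subunits is encoded in mitochondrial DNA, and those genes are not analysed here. The transcription factors NRF1 and GABP (nuclear respiratory factors) are known regulators of many nuclear oxidative phosphorylation genes. T cells raise their respiration on activation.

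Libraries held 28419156 to 38913292 counts, and the marker check fitted the T-cell label in part. Of 14 T-cell markers 9 were listed. Against control, 1 rose and 2 fell with the combination, and 1 rose and 1 fell with talazoparib. CPM is a gene's reads relative to its library's TMM-scaled total. Thy1 had 993 and 1003 CPM in the combination, 999 and 1058 in talazoparib, 1227 and 1237 in romidepsin and 1247 and 1194 in control. Cd4 had 6.41 and 8.23 CPM in the combination, 3.31 and 5.97 in talazoparib, 2.78 and 2.12 in romidepsin and 1.86 and 1.56 in control. Of markers of other cells, 2 of 7 myeloid genes were listed, and both rose with the combination and with talazoparib against control. Their summed level was 35.2 to 36.5 CPM in the combination libraries, 23.5 to 25.6 in talazoparib, 12.9 to 13.5 in romidepsin and 7.14 to 8.57 in control. Of 5 B-cell genes 1 was listed, Cd79b, and it rose in the same comparisons, with 9.84 to 12.3 CPM in the combination, 9.01 to 9.83 in talazoparib, 4.86 to 5.49 in romidepsin and 4.15 to 4.55 in control. Of 5 stromal genes 4 were listed: Pdgfra and Pdgfrb rose and Acta2 fell in both, and their summed level was 217 to 244 CPM in the combination, 195 to 260 in talazoparib, 212 to 225 in romidepsin and 234 to 247 in control. Of 5 erythroid genes 2 were listed and 0 passed in either. The ribosomal transcript Rn45s took 0.183% and 0.172% of counts in the combination, 0.520% and 0.394% in talazoparib, 0.139% and 0.235% in romidepsin and 0.173% and 0.135% in control. The part of these differences in the results below was not tested. In bulk RNA, fewer cells of a type and less RNA per cell cannot be told apart.

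Most oxidative phosphorylation genes were abundant in these cells. Their median level over the 8 libraries was 155 FPKM (fragments scaled to message length and library size), against 11.7 FPKM over all 11934 genes tested, and 82 of the 88 lay above that overall median. Their messages are short, with a median of 777 bases against 2821, which raises FPKM. In CPM, which is not scaled to length, the medians were 132 and 34.8. Complex V and complex IV ranked highest, with medians of 367 and 431 FPKM. Atp5b, the catalytic beta subunit of the synthase, was the top gene at 1038 FPKM, followed by Cox6c, a small complex IV subunit, at 910 FPKM. Complex III ran from 84.8 FPKM for Uqcrfs1, the Rieske iron-sulphur protein, to 488 FPKM for Uqcrh, the hinge protein. Complex I subunits had a median of 111 FPKM, from 13.0 for Ndufs5 to 288 for Ndufv3, both accessory. Complex II ran from 120 FPKM for Sdhc to 250 FPKM for Sdhd, the 2 membrane anchors. Cycs stood at 114 FPKM. The complex I assembly factors were scarce, from 5.25 FPKM for Ndufaf4 to 30.7 FPKM for Ndufaf3. Ndufa4l2, a hypoxia-inducible relative of Ndufa4, was the lowest of all at 4.65 FPKM. Every gene had at least 69 reads in every library, and all 88 passed the low-count filter.

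**Figure D1:**
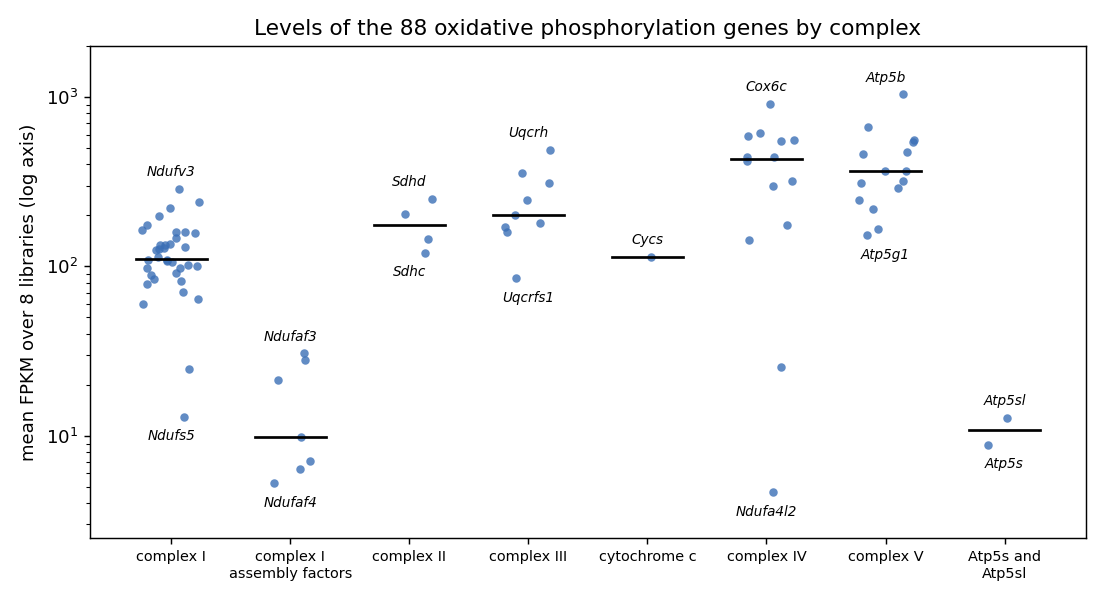
Mean FPKM over the 8 libraries (log axis) of each of the 88 genes, 1 point a gene, grouped by complex, with a black bar at the group's median and the highest and lowest genes named. Complex IV and complex V have the highest medians (431 and 367 FPKM), and the complex I assembly factors lie between 5.25 and 30.7 FPKM.

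RefSeq promoters (GRCm38.p6, 250 bases before to 50 bases after a transcription start) were found for 73 of the 88 genes. They were searched on both strands for an NRF1 core (GCGCA and GCGC with 1 base between them), for CCGGAAG, the ETS core that GABP binds, and for AAGATGGCG, a YY1 core. The NRF1 letters stood in 19 of 73 promoters (26%), against 12% of the promoters of tested genes and 5.19% of all promoters in the table. The ETS letters stood in 17 (23.3%), against 21.4% of tested and 9.93% of all promoters, and the YY1 letters in 8 (11%), against 3.78% and 1.64%. None of the searched motifs holds another. Those printed below are the stretches before the start of Sdha (chr13:74350241-74350490, minus strand), Ndufs6 (chr13:73328483-73328732, minus strand) and Ndufs3 (chr2:90904722-90904971, minus strand). They show the letters in genes described below as lower with talazoparib. Each reads 5′ to 3′ on the gene's strand, and capitals mark NRF1 letters in Sdha and Ndufs6 and ETS letters in Ndufs3. The Ndufs6 match lies on the opposite strand, so its capitals are the reverse complement of the NRF1 letters.
Sdha: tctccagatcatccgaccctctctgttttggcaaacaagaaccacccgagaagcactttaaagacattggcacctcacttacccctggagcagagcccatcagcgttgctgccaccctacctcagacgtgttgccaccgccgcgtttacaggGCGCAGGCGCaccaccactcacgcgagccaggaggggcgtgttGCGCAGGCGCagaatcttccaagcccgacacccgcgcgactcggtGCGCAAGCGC
Ndufs6: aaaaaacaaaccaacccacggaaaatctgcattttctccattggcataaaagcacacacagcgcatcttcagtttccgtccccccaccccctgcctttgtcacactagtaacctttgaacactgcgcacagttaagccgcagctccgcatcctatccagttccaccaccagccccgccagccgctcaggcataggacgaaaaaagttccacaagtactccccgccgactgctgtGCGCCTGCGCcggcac
Ndufs3: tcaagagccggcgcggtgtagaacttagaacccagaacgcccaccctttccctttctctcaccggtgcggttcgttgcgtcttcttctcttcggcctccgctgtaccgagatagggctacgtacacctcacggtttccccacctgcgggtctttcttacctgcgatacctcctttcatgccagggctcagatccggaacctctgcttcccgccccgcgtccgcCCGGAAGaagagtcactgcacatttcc
In Sdha the 3 matches begin 98, 55 and 10 bases before the start, in Ndufs6 the marked match begins 16 bases before it, and in Ndufs3 27 bases before it. Past the printed stretches, the searched bases also held YY1 letters in Ndufs6 and, on the opposite strand, further ETS letters in Ndufs3. A match describes letters and is not evidence of binding.

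With the combination, the electron transport and synthase genes shifted down slightly as a group and a minority passed the test. Against control, 17 of the 88 genes fell (19.3%, where 7.28% of all tested genes fell) and 2 rose (2.27%, where 10.2% of all tested genes rose), by the quasi-likelihood test of edgeR at a Benjamini-Hochberg adjusted p under 0.05. The median log2 fold change was -0.15, against 0.00 for all tested genes, and 74 of 88 genes were below 0 (49.8% of all tested genes were). With talazoparib alone, 10 genes fell (11.4%, where 4.64% of all tested genes fell) and 2 rose (2.27%, where 6.43% rose). The median was -0.16, against 0.01 for all tested genes, and 65 of 88 were below 0 (49.1% of all tested genes were). Both comparisons use the same control libraries.

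Summed over the 88 genes, the level was 15894 and 16458 CPM in the combination libraries, 16797 and 16021 in talazoparib, 18657 and 17875 in romidepsin and 18949 and 17978 in control. On this sum, every library with talazoparib was below every library without it. The sums of complexes I, II, III and V split the same way, while that of complex IV overlapped (3413 CPM in talazoparib replicate 1, 3128 in control replicate 2). The median over the 88 genes also overlapped. It was 126 and 131 CPM in the combination, 133 and 124 in talazoparib, 136 and 136 in romidepsin and 138 and 128 in control. As shares of raw counts, with no TMM scaling, the sums over the 88 genes were 1.65% and 1.72% in the combination, 1.72% and 1.66% in talazoparib, 1.80% and 1.73% in romidepsin and 1.81% and 1.76% in control. On that scale the groups still did not overlap, by a narrow margin.

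How far the shift stands apart depends on abundance. Across all tested genes, abundant genes were lower with talazoparib, with a Spearman correlation of -0.32 between mean CPM and log2 fold change over 11934 genes of the same libraries. Among genes over 100 CPM, 9 of the 53 oxidative phosphorylation genes fell with the combination (17.0%), against 15.5% of all such genes, and 6 fell with talazoparib (11.3%), against 10.6%. At that abundance the share that fell was near the background, and so was the median with the combination, at -0.13 for the 53 genes against -0.12 for all such genes (-0.15 against -0.10 with talazoparib). The share below 0 was above the background, at 84.9% against 67.9% with the combination and 75.5% against 66.4% with talazoparib. Among genes of 10 to 100 CPM, 7 of 32 fell with the combination (21.9%), against 7.16%, and 3 fell with talazoparib (9.38%), against 4.21%, with medians of -0.18 against -0.02 with the combination and -0.17 against -0.01 with talazoparib. Part of the scale is also a choice: with library totals in place of TMM, the median of all tested genes moved to 0.11 with the combination and 0.10 with talazoparib, and the median of the 88 genes to -0.04 with the combination and -0.07 with talazoparib. With that scaling, 80.5% of all calls were rises with the combination (58.4% with TMM) and 79.2% with talazoparib (58.1% with TMM). The distance between the 88 genes and all genes, with no regard to abundance, was -0.15 with the combination and -0.17 with talazoparib under either scaling.

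**Figure D2:**
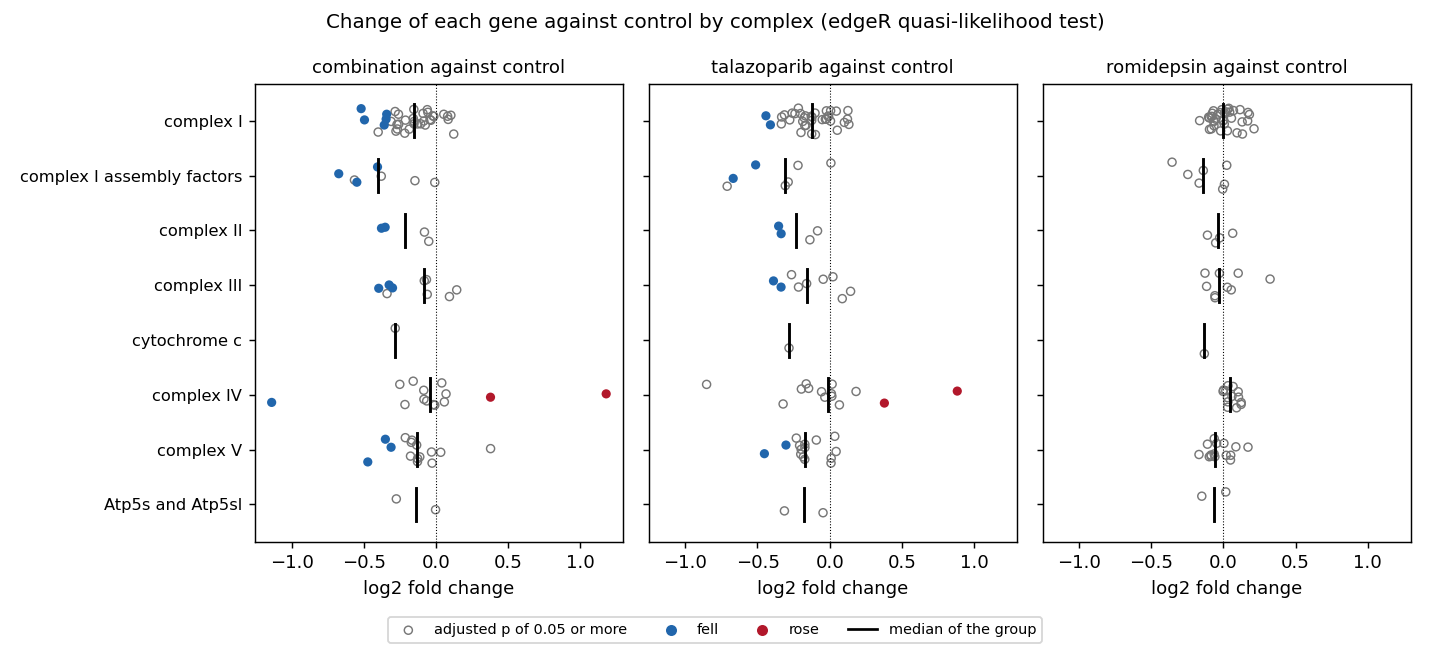
Log2 fold change of each gene in the combination, talazoparib and romidepsin groups against control (x axes), by complex (y axis), 1 point a gene, with filled points for genes past an adjusted p of 0.05 and bars at group medians. Falls are spread over complexes I, II, III and V and the assembly factors, complex IV holds both rises and the fall of Cox6a2, and no gene passes with romidepsin.

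Complex V showed the smallest p-values. Atp5b (chr10:128083307-128090388) had 1649 and 1735 CPM in the combination libraries, 1733 and 1697 in talazoparib, 2218 and 2201 in romidepsin and 2375 and 2317 in control. Its libraries with talazoparib all lay below those without. Atp5b fell by 0.47 on the log2 scale with the combination (SE 0.07, edgeR adjusted p = 0.00621) and by 0.45 with talazoparib (SE 0.07, edgeR adjusted p = 0.0106). Atp5a1, the alpha subunit that forms the catalytic hexamer with Atp5b, had 1221 and 1211 CPM in the combination, 1239 and 1274 in talazoparib, 1499 and 1475 in romidepsin and 1556 and 1543 in control. The separation was complete, and it fell by 0.35 with the combination (edgeR adjusted p = 0.0163) and by 0.30 with talazoparib (edgeR adjusted p = 0.0338). Atp5c1, the rotating gamma subunit, had 342 and 333 CPM in the combination, 372 and 352 in talazoparib, 400 and 389 in romidepsin and 422 and 415 in control. It fell by 0.31 with the combination (edgeR adjusted p = 0.0294), and its value with talazoparib, -0.21, did not pass (edgeR adjusted p = 0.115). Atp5c1 has a named pseudogene, so its reads may be shared.

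The 5 genes of the F1 head, where ATP is made, had a median log2 fold change of -0.31 with the combination and -0.21 with talazoparib, and all 5 were below 0 in both. The 10 genes of the membrane part and stalk had medians of -0.12 with the combination and -0.13 with talazoparib, and 0 of them passed in either comparison. The difference between these sets was not tested. Ring subunit c is made from 3 genes, Atp5g1, Atp5g2 and Atp5g3, whose mature proteins are identical. Atp5g2 had 423 and 428 CPM in the combination, 492 and 402 in talazoparib, 430 and 448 in romidepsin and 461 and 406 in control, and Atp5g3 had 318 and 375 CPM in the combination, 324 and 321 in talazoparib, 365 and 309 in romidepsin and 383 and 375 in control. The Atp5g2 ranges of the combination and romidepsin groups lay side by side, and its other ranges overlapped. Neither gene passed in any comparison.

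Atp5g1 (chr11:96072793-96075694), the least abundant of the ring genes, went the other way in one group. It had 143 and 170 CPM in the combination, 98.7 and 111 in talazoparib, 119 and 104 in romidepsin and 121 and 119 in control. Both combination libraries were the highest of the 8. It rose by 0.49 in the combination against romidepsin (SE 0.12, edgeR adjusted p = 0.0365). Against talazoparib the difference was 0.58 (SE 0.12, 95% interval 0.31 to 0.85, edgeR adjusted p = 0.550, unadjusted p = 0.00107), and against control 0.38 (edgeR adjusted p = 0.0589). The interaction term, which asks whether the drugs' log2 effects add, was 0.69 (95% interval 0.31 to 1.07, unadjusted p = 0.00301, edgeR adjusted p = 0.999 over 11934 genes). DESeq2 called the difference from talazoparib (DESeq2 adjusted p = 0.00961) and from control (DESeq2 adjusted p = 0.0303). As a share of the summed FPKM of the ring genes, Atp5g1 made up 14.0% and 15.2% in the combination, 9.23% and 11.5% in talazoparib, 11.3% and 10.4% in romidepsin and 10.9% and 11.5% in control.

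In complex II the 2 catalytic subunits passed and the 2 membrane anchors did not. Sdha (chr13:74322255-74350240), the flavoprotein that oxidises succinate and whose promoter stretch is printed above, had 372 and 377 CPM in the combination, 371 and 385 in talazoparib, 454 and 483 in romidepsin and 486 and 469 in control. Sdhb (chr4:140961271-140979198), the iron-sulphur subunit, had 189 and 205 CPM in the combination, 200 and 200 in talazoparib, 256 and 235 in romidepsin and 259 and 252 in control. For both genes, libraries with talazoparib lay below all libraries without it. Sdha fell by 0.35 with the combination (edgeR adjusted p = 0.0209) and by 0.34 with talazoparib (edgeR adjusted p = 0.0322). Sdhb fell by 0.38 with the combination (edgeR adjusted p = 0.0228) and by 0.35 with talazoparib (edgeR adjusted p = 0.0370). Sdhc, with 139 and 145 CPM in the combination, 145 and 122 in talazoparib, 154 and 153 in romidepsin and 149 and 145 in control, had log2 fold changes of -0.05 with the combination and -0.14 with talazoparib. Sdhd, with 319 and 328 CPM in the combination, 317 and 328 in talazoparib, 329 and 304 in romidepsin and 343 and 340 in control, had -0.08 in both. That the anchors changed less than Sdha and Sdhb was not tested.

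In complex III the genes that passed encode its large core parts. Cyc1 (chr15:76343513-76346260), cytochrome c1, had 173 and 193 CPM in the combination, 188 and 180 in talazoparib, 224 and 219 in romidepsin and 241 and 240 in control, with no overlap between libraries with and without talazoparib. It fell by 0.40 with the combination (edgeR adjusted p = 0.0197) and by 0.39 with talazoparib (edgeR adjusted p = 0.0284). Uqcrc1, a core protein of the matrix arm, had 237 and 255 CPM in the combination, 246 and 241 in talazoparib, 268 and 294 in romidepsin and 311 and 304 in control. It fell by 0.32 with the combination (edgeR adjusted p = 0.0363) and by 0.34 with talazoparib (edgeR adjusted p = 0.0421). Uqcrc2, its partner, had 306 and 311 CPM in the combination, 328 and 326 in talazoparib, 375 and 355 in romidepsin and 386 and 374 in control. It fell by 0.30 with the combination (edgeR adjusted p = 0.0323) and was at -0.22 with talazoparib (edgeR adjusted p = 0.105). Uqcrfs1 was at -0.08 with the combination and -0.16 with talazoparib, and Uqcrh at 0.14 with the combination and 0.15 with talazoparib, neither past the threshold. Uqcrq, a small subunit, was the noisiest of the complex, at 291 and 215 CPM in the combination, 328 and 205 in talazoparib, 405 and 397 in romidepsin and 273 and 367 in control. Cycs, the mobile carrier, had 310 and 345 CPM in the combination, 295 and 359 in talazoparib, 404 and 322 in romidepsin and 396 and 400 in control, and was at -0.28 with the combination (edgeR adjusted p = 0.185) and with talazoparib (edgeR adjusted p = 0.208).

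Complex I had many small differences and few that passed. With the combination 5 of its 36 genes fell (7.28% of all tested genes did), and with talazoparib 2, a share near the 4.64% of all tested genes. Below 0 were 31 with the combination and 28 with talazoparib. Ndufs8 (chr19:3908863-3912774), an iron-sulphur core subunit, had 53.5 and 61.0 CPM in the combination, 66.9 and 56.3 in talazoparib, 78.5 and 76.0 in romidepsin and 83.1 and 80.7 in control. It fell by 0.52 with the combination (edgeR adjusted p = 0.0181) and by 0.41 with talazoparib (edgeR adjusted p = 0.0486). Ndufb10 (chr17:24722060-24724423), an accessory subunit of the membrane arm, had 77.0 and 80.5 CPM in the combination, 87.6 and 75.8 in talazoparib, 114 and 108 in romidepsin and 119 and 103 in control. Both genes separated libraries with talazoparib from those without. Ndufb10 fell by 0.49 with the combination (edgeR adjusted p = 0.0212) and by 0.44 with talazoparib (edgeR adjusted p = 0.0395).

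Other complex I genes fell with the combination alone among the comparisons with control, each close to the threshold. Ndufs1, the largest iron-sulphur core subunit, had 223 and 231 CPM in the combination, 233 and 279 in talazoparib, 270 and 249 in romidepsin and 286 and 296 in control, so talazoparib and romidepsin libraries overlapped. It fell by 0.36 (edgeR adjusted p = 0.0479). Ndufs6, an accessory subunit whose promoter stretch is printed above, had 57.9 and 61.1 CPM in the combination, 57.8 and 62.2 in talazoparib, 76.7 and 67.5 in romidepsin and 78.7 and 72.4 in control. It fell by 0.34 (edgeR adjusted p = 0.0477), and Ndufs7, the core subunit nearest the coenzyme Q site, by 0.34 as well (edgeR adjusted p = 0.0495). With talazoparib alone their values were -0.19 for Ndufs1, -0.33 for Ndufs6 and -0.33 for Ndufs7, so the 2 comparisons gave similar sizes on either side of the threshold for Ndufs6 and Ndufs7. Over the 7 nuclear core subunits the median was -0.34 with the combination and -0.28 with talazoparib, and all 7 were below 0 in both. Over the 29 accessory subunits it was -0.10 in both. The difference between core and accessory subunits was not tested.

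The assembly factors had the lowest medians, -0.40 with the combination and -0.31 with talazoparib. Ndufaf6 (chr4:11048991-11076237), needed for an early step of complex I assembly, had 5.26 and 5.95 CPM in the combination, 5.61 and 5.64 in talazoparib, 8.30 and 7.94 in romidepsin and 9.14 and 8.74 in control. It fell by 0.67 in both comparisons (edgeR adjusted p = 0.0199 with the combination and 0.0279 with talazoparib). Ndufaf5, which hydroxylates Ndufs7 during assembly, had 16.2 and 16.1 CPM in the combination, 15.7 and 17.4 in talazoparib, 24.5 and 22.5 in romidepsin and 24.1 and 23.1 in control. Both genes split the libraries by talazoparib with no overlap. Ndufaf5 fell by 0.55 with the combination (edgeR adjusted p = 0.0168) and by 0.51 with talazoparib (edgeR adjusted p = 0.0278). Ndufaf1, an assembly factor of the membrane arm, had 29.1 and 26.4 CPM in the combination, 32.1 and 31.1 in talazoparib, 33.4 and 28.6 in romidepsin and 38.6 and 34.9 in control. It fell by 0.40 with the combination (edgeR adjusted p = 0.0484). Ndufaf4 had a log2 fold change of -0.56 with the combination and -0.71 with talazoparib, but its replicates spread widely, at 14.8 and 19.5 CPM in the combination, 10.96 and 20.1 in talazoparib, 24.6 and 15.2 in romidepsin and 22.5 and 28.3 in control, and it did not pass.

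Complex IV had the medians nearest 0 of the respiratory complexes, -0.04 with the combination and -0.01 with talazoparib, and the 3 genes that passed encode 2 alternative subunits and a supercomplex factor. Ndufa4l2 (chr10:127509274-127517154) had 5.56 and 7.80 CPM in the combination, 5.64 and 5.24 in talazoparib, 2.52 and 3.45 in romidepsin and 2.96 and 2.92 in control. It rose 2.27-fold with the combination (log2 fold change 1.18, SE 0.23, edgeR adjusted p = 0.0152) and 1.85-fold with talazoparib (0.88, SE 0.24, edgeR adjusted p = 0.0493). It stayed a minor product, making up 1.32% and 1.74% of the summed FPKM of Ndufa4 and Ndufa4l2 in the combination, 1.39% and 1.09% in talazoparib, 0.527% and 0.852% in romidepsin and 0.641% and 0.713% in control. Ndufa4, a subunit bound to complex IV, was at -0.02 with the combination and 0.02 with talazoparib.

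Cox7a2l (chr17:83501917-83514333) encodes a factor that joins complexes III and IV into supercomplexes, and C57BL/6 mice are known to carry a shortened form of the protein. It had 177 and 176 CPM in the combination, 182 and 171 in talazoparib, 135 and 143 in romidepsin and 142 and 129 in control. All libraries with talazoparib were above all those without. It rose by 0.38 in both comparisons (edgeR adjusted p = 0.0251 with the combination and 0.0336 with talazoparib), about 1.30-fold higher in each. Its relative Cox7a2 was at -0.01 with the combination and 0.02 with talazoparib, and the Cox7a2l share of their summed FPKM was 33.4% and 34.4% in the combination, 33.9% and 33.1% in talazoparib, 25.5% and 29.4% in romidepsin and 28.5% and 27.8% in control.

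Cox6a2 (chr7:128205435-128206366), the heart and muscle isoform of subunit 6a, had 9.81 and 10.6 CPM in the combination, 16.2 and 8.58 in talazoparib, 21.7 and 27.1 in romidepsin and 25.04 and 19.8 in control. It fell by 1.14 with the combination (SE 0.28, edgeR adjusted p = 0.0283). Its talazoparib libraries differed by 0.85 on the log2 scale, the largest replicate gap in that group, and the value there, -0.85, did not pass (edgeR adjusted p = 0.0823, DESeq2 adjusted p = 0.0125). The ubiquitous isoform Cox6a1 was at -0.08 with the combination and -0.16 with talazoparib. Cox6a2 was 3.35% and 3.45% of the summed FPKM of the pair in the combination, 5.17% and 3.31% in talazoparib, 6.43% and 7.67% in romidepsin and 7.23% and 6.36% in control. The other isoform genes listed, Cox4i1, Cox6b1 and Cox8a, lay between -0.16 and 0.07 with the combination and between -0.15 and 0.07 with talazoparib, and none passed.

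**Figure D3:**
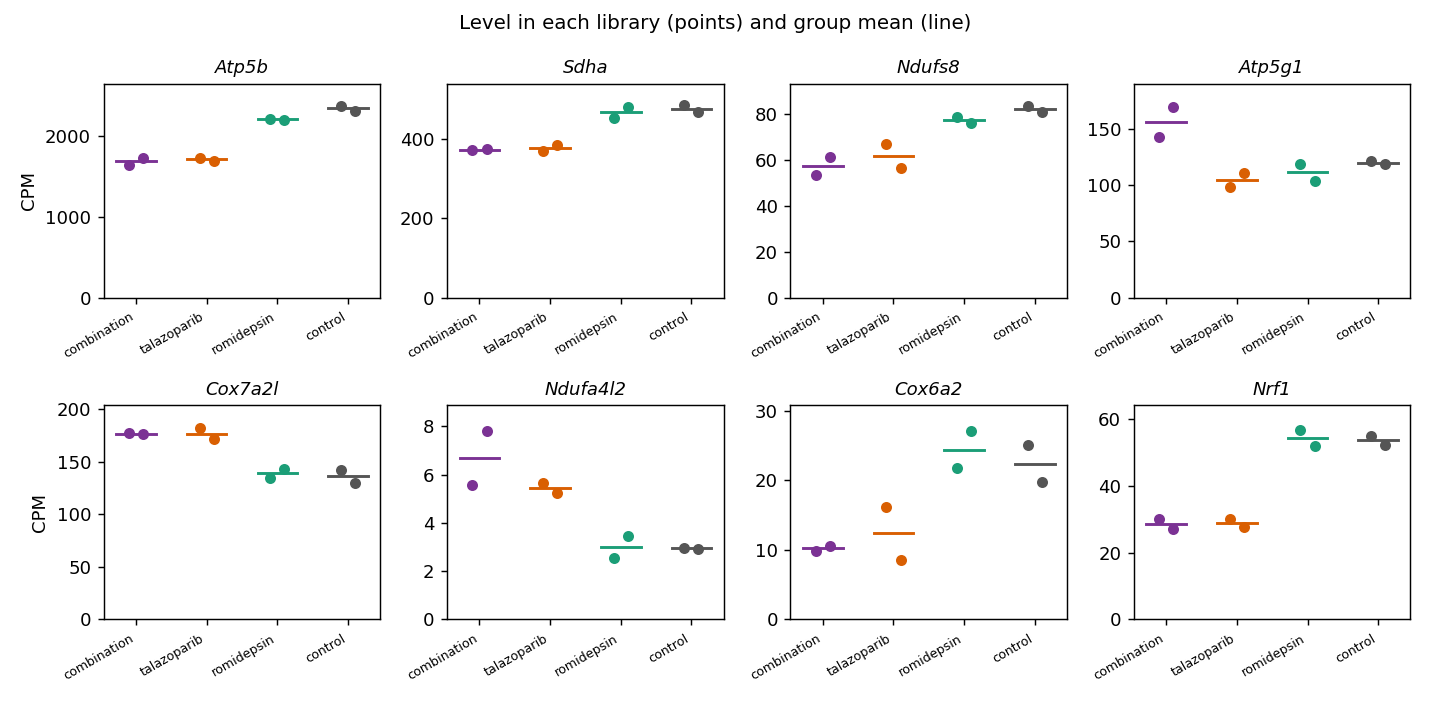
CPM (y axes, from 0) in each library (points) with the group mean (line) for 7 of the 88 genes and the regulator Nrf1, with groups in the order combination, talazoparib, romidepsin and control. Atp5b, Sdha, Ndufs8 and Nrf1 are lower in both groups with talazoparib, Cox7a2l and Ndufa4l2 are higher, and Atp5g1 is highest in the combination (143 and 170 CPM).

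Romidepsin alone gave no call among these genes. Against control, 0 of 88 passed, where 0.0168% of all tested genes fell and 0.00838% rose, 0 had an unadjusted p under 0.05 (4.37% of all tested genes did), and DESeq2 also called 0. The median log2 fold change was 0.00, with 44 genes below 0 (49.5% of all tested genes were) and a range from -0.36 for Ndufaf4 to 0.32 for Uqcrq. The 95% intervals had a median half-width of 0.23, and those of 79 genes lay within 0.5 of 0 on the log2 scale. For Atp5b the value was -0.09 (95% interval -0.25 to 0.08). Differences smaller than these intervals were not detectable with 2 libraries a group. Larger ones can also go uncalled, because the threshold is on p-values adjusted over all tested genes. In the combination against talazoparib, Atp5g1 differed by 0.58 and did not pass (edgeR adjusted p = 0.550). The absence of calls with romidepsin thus does not exclude differences above the median half-width.

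Adding romidepsin to talazoparib gave 0 calls as well, where 0.0168% of all tested genes fell and 0.00838% rose. The median was -0.02, with 59 of 88 genes below 0 (50.7% of all tested genes were). An unadjusted p under 0.05 was reached by 2 genes (Atp5g1, described above, and Ndufb5 at -0.22), and the intervals of 83 genes lay within 0.5 of 0. DESeq2 called 1 gene, Atp5g1. The interaction term called 0 of 88, where 0.0168% of all tested genes fell and 0% rose, with 49 genes below 0 (50.8% of all tested genes were), 1 unadjusted p under 0.05 (Atp5g1), 0 calls by DESeq2 and 63 intervals within 0.5 of 0.

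Adding talazoparib to romidepsin was the other test of talazoparib, with other libraries on both sides. Against romidepsin, 8 genes fell in the combination (9.09%, where 4.70% of all tested genes fell) and 3 rose (3.41%, where 7.01% rose). The median was -0.15 and 77 of 88 genes were below 0 (50.3% of all tested genes were). Those that fell were Atp5a1 (-0.29), Atp5b (-0.39), Cox6a2 (-1.26), Ndufaf5 (-0.54), Ndufb10 (-0.49), Ndufs8 (-0.43), Sdha (-0.33) and Sdhb (-0.32). The rises were those of Ndufa4l2 (1.15), Cox7a2l (0.35) and Atp5g1 (0.49). Cyc1 was at -0.28 (edgeR adjusted p = 0.0720) and Ndufaf6 at -0.53 (edgeR adjusted p = 0.0530).

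These tests rest on few libraries. Without control replicate 1 or control replicate 2, 0 genes passed with talazoparib, and with the combination 0 passed without control replicate 1 and 1 without control replicate 2 or either combination library. Against romidepsin, 0 passed without either romidepsin library or combination replicate 2. A comparison added after these values were seen averaged talazoparib's effect over both romidepsin arms, 4 libraries with against 4 without. By that test 22 genes fell (25%, where 13.7% of all tested genes fell) and 2 rose (2.27%, where 16.5% rose), with a median of -0.15 and 72 genes below 0 (50.1% of all tested genes were). In 26 genes all 4 libraries with talazoparib were below all 4 without (15.8% of all tested genes), and in 2, Cox7a2l and Ndufa4l2, all were above (17.0% of all tested genes). Among genes over 100 CPM, 24.5% fell, against 25.8% of all such genes, and among those of 10 to 100 CPM 25%, against 13.8%. Leaving out any 1 library, 12 to 31 genes passed, 12 without control replicate 1 or combination replicate 1.

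The averaged test called 15 of the 17 genes that fell with the combination. It reuses the combination and control libraries by which the 17 were picked, so the overlap is not independent support. It did not call Ndufs1 (-0.19, edgeR adjusted p = 0.0818) or Ndufaf1 (-0.19, edgeR adjusted p = 0.119), and Atp5g1, which rose against romidepsin, was at 0.15 (edgeR adjusted p = 0.217). Atp5b fell by 0.42 (SE 0.05, edgeR adjusted p = 0.00134), Ndufaf5 by 0.53 (edgeR adjusted p = 0.00298) and Sdha by 0.33 (edgeR adjusted p = 0.00423). The averaged test also called falls in 7 genes outside the comparisons above: Ndufs3 by 0.32, Ndufv1, the NADH-oxidising flavoprotein, by 0.26, Ndufb8 by 0.22, Ndufab1, the mitochondrial acyl carrier protein, by 0.21, Cox5a by 0.27, Cox7c by 0.24 and Atp5f1, the b subunit of the peripheral stalk, by 0.17. Of these, Ndufs3 had 81.9 and 84.1 CPM in the combination, 101 and 80.1 in talazoparib, 100 and 113 in romidepsin and 113 and 106 in control, so 1 talazoparib library overlapped the romidepsin ones. These 7 were named after their values were seen.

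**Figure D4:**
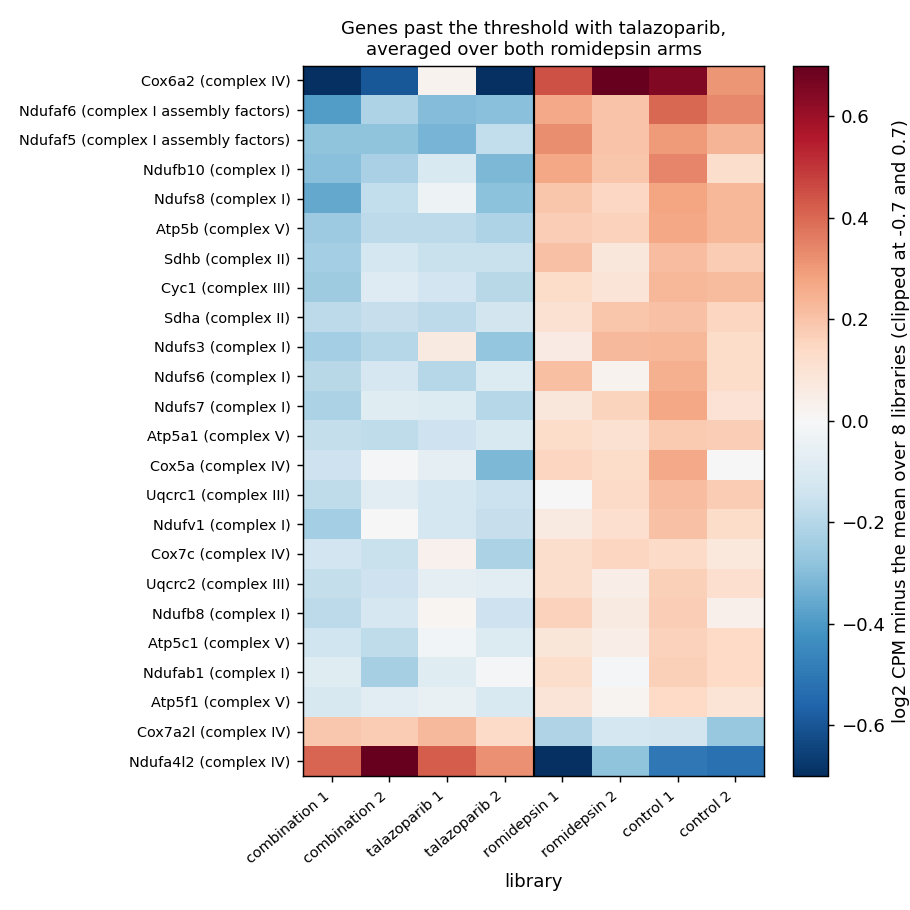
Log2 CPM minus the gene's mean over 8 libraries (colour, clipped at -0.7 and 0.7) for the 24 genes past the threshold in the averaged comparison, 1 row a gene and 1 column a library, with the 4 libraries with talazoparib left of the line. The genes were picked for this difference, so the contrast is by choice, and what can be read is the size and the spread between replicates: the top row, Cox6a2, has its talazoparib libraries far apart (16.2 and 8.58 CPM).

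Over the 88 genes the change also followed message length, taken from the ratio of counts to FPKM. The Spearman correlation between length and log2 fold change was -0.42 with the combination, -0.46 with talazoparib and -0.42 with romidepsin, while over all 11934 tested genes it was 0.03 with the combination, 0.10 with talazoparib and -0.04 with romidepsin. These are descriptions across genes of the same 8 libraries, and the 3 comparisons share the control libraries. In the combination against romidepsin, which does not use them, the correlation was weaker, at -0.26 over the 88 genes and 0.05 over all tested genes. The 29 longest (1102 to 3693 bases) had a median of -0.28 with the combination, -0.22 with talazoparib and -0.06 with romidepsin, and 11 of them fell with the combination (37.9%, against 7.74% of all tested genes in that range) and 7 with talazoparib (24.1%, against 5.38%). The 30 shortest (297 to 645 bases) had medians of -0.07 with the combination, -0.03 with talazoparib and 0.04 with romidepsin, and 2 fell with the combination (6.67%, against 4.21% of all tested genes in that range) and 1 with talazoparib (3.33%, against 3.07%). All tested genes in the longest range had medians of 0.00 with the combination, -0.02 with talazoparib and 0.00 with romidepsin. Those in the shortest range had -0.01 with the combination, 0.01 with talazoparib and 0.07 with romidepsin. With romidepsin, a lower median at greater length was thus also seen over all tested genes in these ranges. The long genes include Sdha, Ndufs1 and the F1 alpha and beta genes, and short ones most accessory subunits, so length and role cannot be told apart here.

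**Figure D5:**
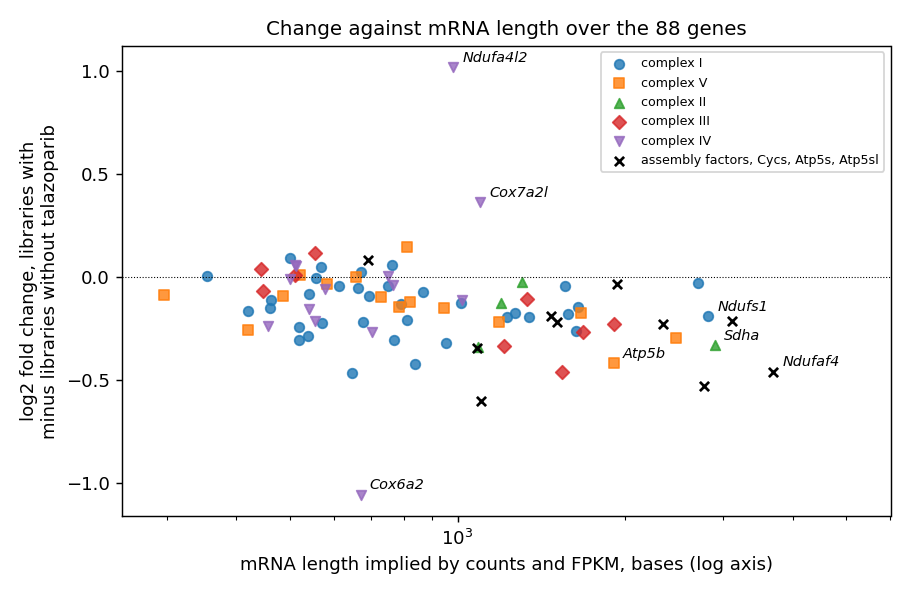
Log2 fold change of the 4 libraries with talazoparib minus the 4 without (y axis) against message length in bases (x axis, log scale) for the 88 genes, with 1 symbol for each complex. Over the 88 genes the Spearman correlation was -0.37, and the genes far from the rest are Ndufa4l2 (1.02), Cox7a2l (0.36) and Cox6a2 (-1.06).

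Of the regulators listed for comparison, 13 of 15 were tested, and with the combination 1 rose and 5 fell, with talazoparib 1 rose and 4 fell (of all tested genes 7.28% fell with the combination and 4.64% with talazoparib). Nrf1 had 30.1 and 27.2 CPM in the combination, 30.1 and 27.7 in talazoparib, 56.8 and 52.0 in romidepsin and 55.0 and 52.3 in control. Gabpa, the DNA-binding subunit of GABP, had 46.6 and 44.0 CPM in the combination, 53.4 and 49.9 in talazoparib, 78.5 and 84.2 in romidepsin and 85.7 and 84.8 in control. Both genes were lower in every library with talazoparib, by a wide gap. Nrf1 fell by 0.91 with the combination (edgeR adjusted p = 0.00219) and by 0.89 with talazoparib (edgeR adjusted p = 0.00338). Gabpa fell by 0.91 with the combination (edgeR adjusted p = 0.00114) and by 0.72 with talazoparib (edgeR adjusted p = 0.00375). In both comparisons these 2 genes kept their calls in 17 of 17 alternatives. The rise was that of Esrrb, an orphan nuclear receptor related to the respiratory regulator Esrra, by 1.01 with the combination and 0.89 with talazoparib. Genes whose promoter held the NRF1 letters had a median of -0.13 with the combination and -0.16 with talazoparib (of 19 genes, 5 fell with the combination and 3 with talazoparib). Those without had -0.15 with the combination and -0.16 with talazoparib (of 54 genes, 6 fell with the combination and 4 with talazoparib). With the combination the median was -0.13 for genes with the ETS letters and -0.15 for those without, and with talazoparib -0.09 and -0.17. For the 8 genes with the YY1 letters it was -0.16 with the combination and -0.17 with talazoparib. The 65 without them had -0.13 and -0.16. Whether the lower regulators bear on the lower targets was not tested.

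Neighbouring pathways gave small counts too, to be read against the 7.28% of all tested genes that fell with the combination and the 4.64% with talazoparib. The cycle, coenzyme Q and carrier lists had larger shares than these, from few genes and with no test. Many cycle and carrier genes lay over 100 CPM, where 15.5% of all tested genes fell with the combination and 10.6% with talazoparib. Of 24 tested genes of the citric acid cycle and pyruvate dehydrogenase, 5 fell with the combination and 2 with talazoparib, and 0 rose. Among them Idh3g, a subunit of isocitrate dehydrogenase, fell by 0.39 in both, and Dlat, the acetyltransferase of pyruvate dehydrogenase, by 0.34 with the combination and by 0.32 with talazoparib. Of 11 coenzyme Q synthesis genes, 2 fell in each comparison: the methyltransferase Coq3 by 0.57 in both, and the hydroxylase Coq7 by 0.48 with the combination and by 0.51 with talazoparib. Of 8 carriers and channels, 2 fell in each: Slc25a5, an ADP/ATP carrier, by 0.34 with the combination and by 0.35 with talazoparib, and Vdac2, an outer membrane channel, by 0.36 with the combination and by 0.35 with talazoparib. Of 44 assembly factors outside the Nduf prefix, 3 fell and 1 rose with the combination and 2 fell and 1 rose with talazoparib. The falls were near the 7.28% and 4.64% of all tested genes. Ecsit, which acts in complex I assembly, fell by 0.62 with the combination and by 0.53 with talazoparib. Uqcc2, which acts in cytochrome b synthesis, fell by 0.52 with the combination and by 0.61 with talazoparib. Sdhaf4, which aids Sdha assembly, rose by 0.78 with the combination and by 0.58 with talazoparib. Of 17 genes that transcribe or maintain mitochondrial DNA, 0 passed with the combination and 1, Mterf2, rose by 0.62 with talazoparib.

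In the authors' deposited table, at an adjusted p under 0.05, 7 of the 88 genes were lower and 1 higher with the combination (5.73% and 10.5% of all genes listed), 4 lower and 1 higher with talazoparib (4.01% and 7.54%), and 0 with romidepsin. Their 7 with the combination were Atp5b, Cyc1, Cox6a2, Ndufb10, Ndufaf5, Ndufaf6 and Ndufs8, and the higher gene was Ndufa4l2. Their 4 with talazoparib were Cox6a2, which edgeR did not call there, Ndufb10, Ndufaf5 and Ndufaf6, and the higher gene was again Ndufa4l2. Atp5b, Atp5a1, Sdha, Sdhb, Cyc1 and Cox7a2l did not pass with talazoparib in the authors' values. Their share lower with talazoparib was near that of all genes listed.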

How the data were processed

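RNA was measured in 4 groups of 2 MBL2 libraries at 24 h. Per the labels' protocols, RNA was extracted with TRIzol, treated with DNase and made into TruSeq Stranded mRNA libraries. HISAT2, StringTie and the mm10 build are named in the submitters' processing notes, with no versions there. Per the file headers, the authors deposited raw read counts and FPKM values for each gene in the same table. It also holds the authors' fold changes and adjusted p-values, per the file headers, which were counted and entered no test. The table's 38 other columns of values were not used.

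Counts of all 8 libraries were filtered with filterByExpr (11934 of 12260 genes left), scaled with TMM and fitted with 1 term per group by edgeR 4.0.16's quasi-likelihood test (R 4.3.3), with Benjamini-Hochberg adjustment over all genes tested and a threshold of 0.05. Residual degrees of freedom were 4 and the biological coefficient of variation 12.9%. CPM uses TMM library sizes. DESeq2 1.42.0 and limma 3.58.1, on log2(FPKM + 1) and log2(FPKM + 0.1), served as alternatives, beside other scalings, no filter, a replicate block, only the compared groups and each library left out. The fits were tested on simulated data. Intervals are at the 95% level. Coordinates and promoters are RefSeq's (GRCm38.p6), and all 88 genes matched by gene ID.

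The genes and lists were chosen with earlier results of these data known. Genes were named if past the threshold against control (up to 12 per direction), highest or lowest of a complex, an isoform of 1 subunit, a Sdh gene, Cyc1 or Cycs, or among the 2 smallest p-values per direction of a list. Further genes were named after their values were seen: Ndufs1, Ndufs3, Ndufs6, Ndufs7, Ndufaf1, Uqcrq, Ndufb5 and the others of the averaged comparison.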

Additional observations from a re-analysis of the deposited data

How the results depend on the processing

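Counts of genes past the threshold moved by more than 1.5 times as follows. With talazoparib (12 genes), library totals gave 5, limma with either pseudocount 5, and a fit of the compared groups alone 0. With the combination against control (19), library totals gave 10. In the combination against romidepsin (11), library totals gave 7, limma 6 with a pseudocount of 1 and 7 with 0.1. In the averaged comparison (24), library totals gave 13. In the combination against talazoparib (0), DESeq2 gave 1. TMM and library totals place 0 differently over all tested genes, as described above, and which is nearer the true amounts was not tested. The causes of the other moves were not tested either. DESeq2, RLE size factors, robust variances and no filter left the other counts within 1.5 times.

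Leaving out 1 library gave 0 to 7 genes with talazoparib, 0 to 22 with the combination, 0 to 15 against romidepsin, 12 to 31 in the averaged comparison and 0 to 0 in the rest. The library left out leaves its group with 1 library, assumed to vary like the others. The medians of the 88 genes stayed below 0 in those settings, at -0.19 to -0.10 with talazoparib and -0.20 to -0.09 with the combination.

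The replicate numbers are not shown to pair the libraries: deviations of same-numbered libraries correlated at -0.43 to 0.38 between groups. With the replicate number as a block, 3 genes passed with talazoparib and 5 in the combination against romidepsin, 15 with the combination and 21 in the averaged comparison.

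Single genes were refitted under the alternatives against control, against romidepsin and in the average. Of the values of the 88 genes, 5444 kept their side of the threshold, 400 lost and 52 gained a call, and of those of the other listed genes 8461 kept, 465 lost and 119 gained one. A call of the 88 genes held in 6 to 15 of 17 alternatives with the combination (median 12), in 4 to 14 with talazoparib (median 6) and in 6 to 14 against romidepsin (median 10). Atp5b kept its call in 15 of 17 alternatives with the combination and 14 with talazoparib, while Ndufs8 and Uqcrc1 kept theirs with talazoparib in 4. With the combination Ndufs1 and Ndufaf1 kept theirs in 7, Ndufs6 in 8 and Ndufs7 in 6. The compared-groups fit was not run for the interaction and the average, which need all 4 groups. Counting error alone is 12% of the lowest count of these genes (69 reads) and 1.54% of the median count.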
